A study of Rattus norvegicus with 862 samples.

Results

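The genes described are the 54 cytochrome P450 genes on the rat array whose symbol begins with Cyp and a number, other than the Cyp1 family and Cyp51, out of 14217 genes that had a probe set naming a single gene. They were taken by symbol alone, with the probe set of highest mean standing for each gene, and the rule uses no measured response. The hearts came from 840 male Sprague-Dawley rats that were aged 6 to 8 weeks when bought, of which 611 received 1 of 88 compounds and 229 were vehicle controls at dose 0. Each compound and dose was given in carboxymethylcellulose (CMC), water, corn oil, saline or an acacia mixture, by oral gavage, subcutaneous, intravenous or intraperitoneal dosing or a subcutaneous mini-pump. A further 6 controls received a mixture of CMC, SDS and povidone by oral gavage, in which no compound was given. Treatment lasted 1 d (151 treated animals), 3 d (219) or 5 d (235) in most groups, with 3 treated animals each at 0.25 d and 7 d. Among the controls 2 were of 4 d, a duration without treated animals. Tissue collection fell in the morning after 3 and 5 d and in the afternoon after shorter treatments. Every animal was of 1 strain and sex, and the usual group was 3 animals at 1 dose and duration.

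Each compound and dose was set against control animals of the same vehicle, route, duration and RNA extraction campaign, which could be done for 95 of 97 combinations of compound, dose, vehicle and route and for 87 compounds. Levels are log2 intensities of poly A RNA hybridised to an Affymetrix array, and a difference of 1 is a doubling. A change was called where limma's Benjamini-Hochberg adjusted p over all 14217 genes was 0.01 or less and the fold change was 1.5 or more. Fewer cells that express a gene and less RNA per cell cannot be told apart in whole heart tissue.

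Cytochrome P450 enzymes are haem proteins that insert an oxygen atom into a substrate with electrons passed on by P450 reductase (Por) in the endoplasmic reticulum or by ferredoxin in mitochondria. Most Cyp2 and Cyp3 enzymes are known from liver, where drugs that bind the nuclear receptors CAR, PXR and PPAR alpha raise their genes, and where they clear drugs and other foreign compounds. In the heart the family is known mainly for oxidising arachidonic acid and related fatty acids: Cyp2c and Cyp2j epoxygenases form epoxides that widen vessels, and Cyp4 omega-hydroxylases form hydroxy acids that narrow them. Other members make steroid hormones, bile acids, vitamin D or retinoic acid metabolites.

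The 250 bases before the start of 5 of the genes are given here because the results turn on them: Cyp2e1, Cyp4b1, Cyp11a1 and Cyp2t1 were called in 4 or more compounds each, and Cyp4f1 is the other gene called after both dexamethasone and fluocinolone acetonide. The sequences are RefSeq's, on rat build GRCr8, and run from 5′ to 3′ on the strand of the gene. Capitals mark the motifs searched on both strands. These were the nuclear receptor half-site AGGTCA, then the half-site of the glucocorticoid receptor, which reads AGAACA, and finally the TATA box motif, which reads TATAAA. They lie at chr1:205269717-205269966 on the + strand for Cyp2e1, chr5:134393117-134393366 on the - strand for Cyp4b1, chr8:67318415-67318664 on the + strand for Cyp11a1, chr1:91575260-91575509 on the + strand for Cyp2t1 and chr7:12672554-12672803 on the - strand for Cyp4f1.
Cyp2e1: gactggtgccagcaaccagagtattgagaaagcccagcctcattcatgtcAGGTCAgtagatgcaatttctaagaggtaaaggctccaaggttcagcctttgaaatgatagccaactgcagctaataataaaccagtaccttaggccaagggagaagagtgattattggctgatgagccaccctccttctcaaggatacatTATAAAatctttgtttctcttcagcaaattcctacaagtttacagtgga
Cyp4b1: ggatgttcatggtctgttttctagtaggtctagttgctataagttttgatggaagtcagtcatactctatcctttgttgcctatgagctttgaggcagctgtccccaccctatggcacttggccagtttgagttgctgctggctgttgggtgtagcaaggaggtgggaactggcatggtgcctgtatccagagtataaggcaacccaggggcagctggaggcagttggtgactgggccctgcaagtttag
Cyp11a1: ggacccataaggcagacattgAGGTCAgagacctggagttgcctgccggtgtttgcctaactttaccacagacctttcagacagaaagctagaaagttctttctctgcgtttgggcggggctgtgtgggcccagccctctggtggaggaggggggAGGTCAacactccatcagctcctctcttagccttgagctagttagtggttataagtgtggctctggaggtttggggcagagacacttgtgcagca
Cyp2t1: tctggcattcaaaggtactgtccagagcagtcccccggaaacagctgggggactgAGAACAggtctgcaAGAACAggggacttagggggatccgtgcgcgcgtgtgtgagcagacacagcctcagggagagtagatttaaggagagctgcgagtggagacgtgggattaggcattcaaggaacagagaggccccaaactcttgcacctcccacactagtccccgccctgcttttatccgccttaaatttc
Cyp4f1: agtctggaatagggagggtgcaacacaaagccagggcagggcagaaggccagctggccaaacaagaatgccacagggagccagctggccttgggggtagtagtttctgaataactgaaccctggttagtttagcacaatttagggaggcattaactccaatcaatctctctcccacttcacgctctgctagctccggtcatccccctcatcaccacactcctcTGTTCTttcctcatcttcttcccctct

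In these windows, Cyp2e1 held AGGTCA at 200 bases and TATAAA at 49 bases before the start. Cyp11a1 held AGGTCA at 229 and 95 bases, and Cyp2t1 held AGAACA at 195 and 181 bases. Cyp4f1 held AGAACA on the opposite strand at 27 bases, printed as TGTTCT, and none of the 3 motifs was found in the Cyp4b1 window. Short motifs of this kind were frequent: over all 33469 promoter windows in the table, cut to the same 250 bases, 14.06% held AGGTCA, 17.52% AGAACA and 12.93% TATAAA. Of the 54 genes, 43 had a window in the table. Of these, 15 (34.88%) held AGGTCA, 8 (18.6%) AGAACA and 12 (27.91%) TATAAA, and the difference from all windows was not tested. A match describes the letters and was not tested as a binding site.

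In control hearts most of these genes were dim. Over the 217 controls with a group, 9 of 54 genes (16.7%) had a mean level above 7.02, the median over all genes, and 34 were under 5. Probe sets differ in affinity, so these levels are given as a description and not as an order of RNA amounts. The median SD between control animals was 0.25 for the P450 genes and 0.22 over all genes.

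**Figure D1:**
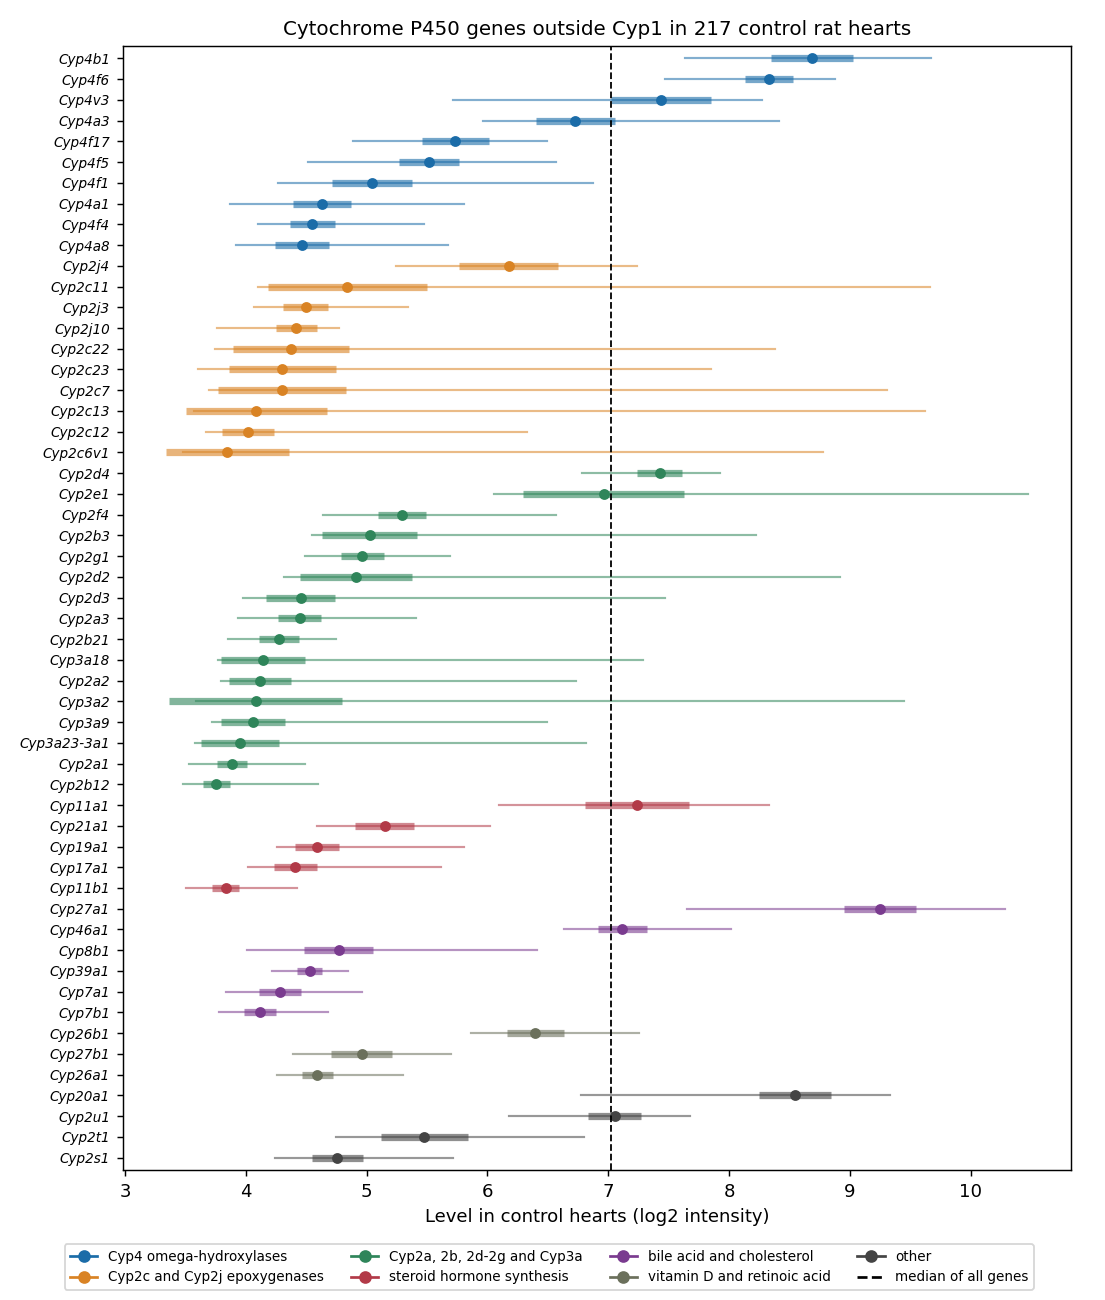
Level of each of the 54 genes in 217 control hearts, grouped by role, on the log2 intensity axis. Dots are means, thick bars the mean ± SD, thin lines the lowest to the highest animal, and the dashed line the median over all genes (7.02). Only 9 dots lie to its right, and the thin lines of Cyp2c, Cyp3a2, Cyp2d2 and Cyp2e1 stretch far to the right of their dots.

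The probe set of highest mean was that of Cyp27a1, the mitochondrial sterol 27-hydroxylase, at 9.25 ± 0.30 (SD, n = 217 controls). Next came Cyp4b1, a fatty acid hydroxylase of lung and vessels, at 8.68 ± 0.34, and Cyp20a1, a P450 with no settled substrate, at 8.55 ± 0.30. Cyp4f6 stood at 8.33 ± 0.20, Cyp4v3 at 7.44 ± 0.41 and Cyp2d4, a brain form of the Cyp2d drug oxidases, at 7.43 ± 0.19. Cyp11a1, the enzyme that cleaves the side chain of cholesterol in the first step of steroid synthesis, stood at 7.24 ± 0.43. Cyp46a1, which hydroxylates cholesterol in neurons, stood at 7.12 ± 0.20, Cyp2u1 at 7.05 ± 0.22 and Cyp2e1, the ethanol and acetone oxidase, at 6.96 ± 0.67.

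At the other end were Cyp2b12 (3.76), Cyp11b1 (3.84), Cyp2c6v1 (3.85), Cyp2a1 (3.88) and Cyp3a23-3a1 (3.95), near the lowest values of the array (3.15). By role, the 10 Cyp2c and Cyp2j epoxygenases had control means from 3.85 to 6.18 with a median of 4.34, and none of them passed the median of all genes. The 16 Cyp2a, Cyp2b, Cyp2d to Cyp2g and Cyp3a genes ran from 3.76 to 7.43 with a median of 4.36. The 10 Cyp4 genes ran from 4.47 to 8.68 with a median of 5.63, and 3 of them passed the median of all genes. The 3 vitamin D and retinoic acid genes ran from 4.59 to 6.40, and none passed it.

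A few arrays read high in liver genes, and many of the P450 genes read high with them. On the arrays of 13 animals (3 controls and 10 treated), called liver-rich here, the median of 20 liver marker genes was between 8.20 and 11.17, against a median of 5.05 and a highest value of 7.76 on the other arrays, while the heart muscle list on the same arrays stayed between 13.34 and 13.83. On those arrays 16 of the 54 genes averaged at least 1 higher, led by Cyp3a2 (by 3.65), Cyp2c6v1 (3.56), Cyp2c7 (3.54) and Cyp2c11 (3.34), all known liver P450 genes. Cyp2d2 was 2.53 higher there, Cyp3a23-3a1 2.05 and Cyp2e1 1.65. Of the 42 changes called below, 40 were also called with these arrays left out, and the value without them is given where it ends a call or moves a change by over 1.5 times. A list of 6 measured adrenal cortex genes other than P450 genes, a tissue in which Cyp11a1 is abundant, had a median of 4.58 in controls (4.19 to 5.01) and of 4.60 in treated hearts (4.13 to 5.55).

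Over all 95 comparisons, 42 changes of P450 genes were called, 34 higher and 8 lower, out of 5130 pairs of a gene and a compound (0.819%), where 0.702% of all pairs over all genes were called. Higher calls made up 0.663% of the P450 pairs against 0.357% over all genes, and lower calls 0.156% against 0.344%. The calls fell on 8 of the 54 genes (14.8%), and 18.7% of all genes were called at least once. Cyp2e1, Cyp4b1 and Cyp11a1 were called in 5 or more compounds, which is 5.56% of the 54 genes where 4.25% of all genes were. The other 46 genes were called in no comparison, and 71 of the 95 comparisons called none of the 54.

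**Figure D2:**
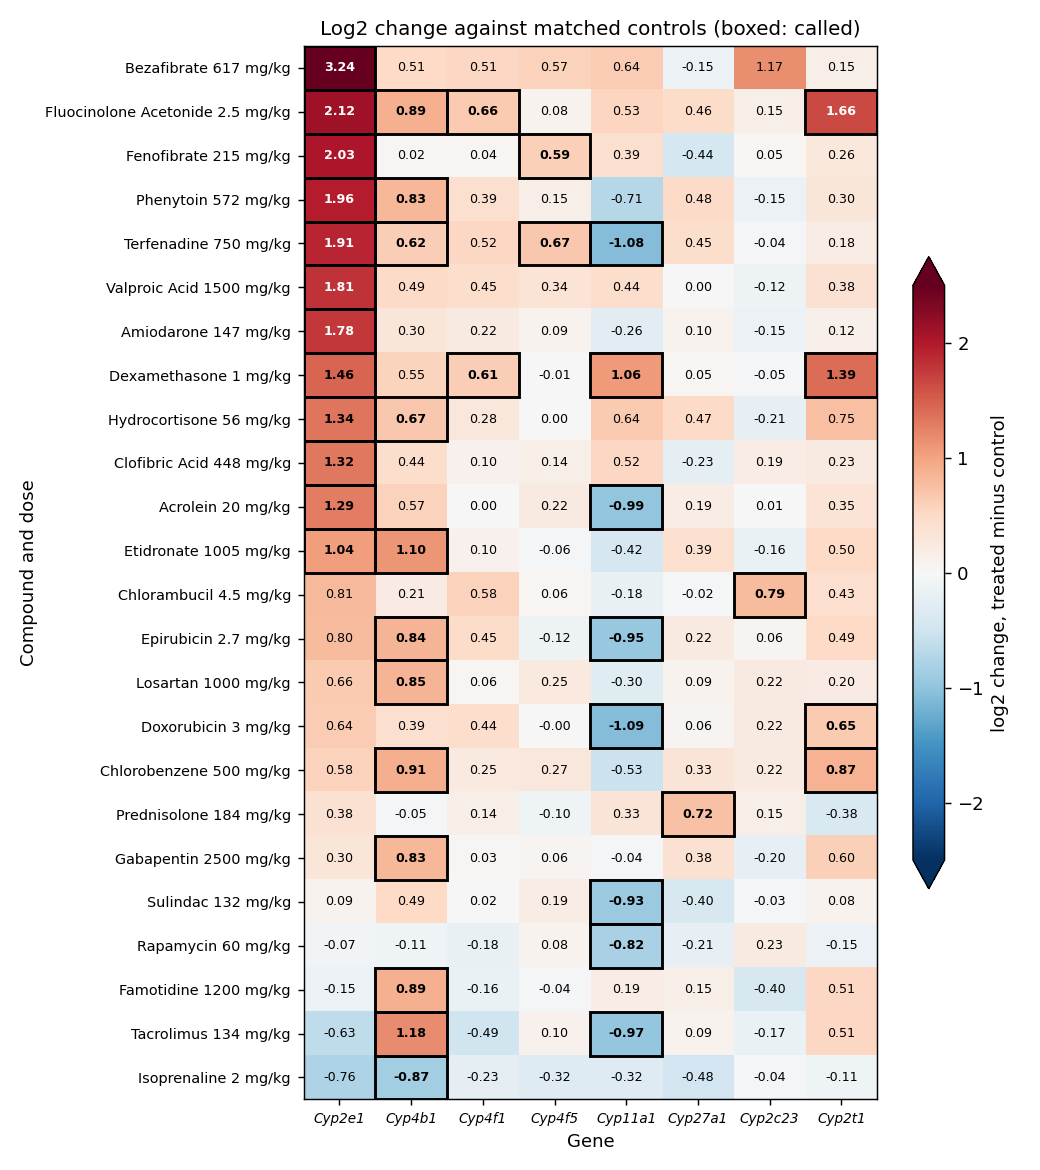
Log2 change (treated minus matched control) of the 8 P450 genes called at least once, in the 24 compounds and doses that called any. Boxed cells are called and the colour scale stops at 2.5. The boxes gather in the columns of Cyp2e1 (12), Cyp4b1 (12) and Cyp11a1 (8), and the lower calls are 7 of Cyp11a1 and 1 of Cyp4b1.

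The compounds with most P450 genes called also had many other genes called. Dexamethasone at 1 mg/kg, fluocinolone acetonide at 2.5 mg/kg and terfenadine at 750 mg/kg each called 4 of 54 (7.41%), beside 6.27%, 5.73% and 1.85% of all genes. Of the 9 that called 2 of 54 (3.70%), the share of all genes was 2.11% after acrolein, 2.9% after chlorobenzene, 1.43% after doxorubicin, 2.7% after epirubicin, 1.38% after etidronate, 1.07% after fenofibrate, 2.64% after hydrocortisone, 0.703% after phenytoin and 2.47% after tacrolimus. A single P450 gene (1.85%) was called in the remaining 12. The share of all genes there was 0.239% after amiodarone, 0.654% after bezafibrate, 0.155% after chlorambucil, 0.288% after clofibric acid, 0.134% after famotidine, 0.907% after gabapentin, 1.86% after isoprenaline at 2 mg/kg, 0.774% after losartan, 1.39% after prednisolone, 0.513% after rapamycin, 5.56% after sulindac and 1.27% after valproic acid. Sulindac, with one of the highest shares of all genes, called Cyp11a1 alone of the 54. The 24 comparisons used 167 treated animals and 152 control animals, 129 of which served in 2 or more of them, so they are not independent of each other.

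Cyp2e1, the gene of the P450 that oxidises ethanol, acetone and small solvents and is itself raised by fasting and diabetes in liver, was higher in all 12 of its calls. After bezafibrate at 617 mg/kg, the PPAR alpha agonist, the 3 animals of 1 d read 8.63, 8.73 and 11.85 and the 3 of 7 d read 8.32, 10.81 and 11.87. The 10 controls lay between 6.20 and 7.08, so all 6 treated hearts were above every control. The change was 3.24 ± 0.48 (SE) on the log2 scale, 9.47-fold, with a limma adjusted p of 0.0018. One of these treated arrays was among those with a high liver median (11.17), and without it the change was 2.72. Arrays of doubtful tissue or quality were defined by the liver list, the adipocyte list and the array correlation. Without all of these, 3 of the 6 treated hearts were left, and the change was 1.86 and still called.

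Fluocinolone acetonide, a strong glucocorticoid given under the skin, gave the next largest change. At 1 d the 3 animals read 8.68, 9.22 and 9.31, at 3 d 7.68, 7.71 and 8.38, and at 5 d 9.26, 9.34 and 9.51, while the 9 controls ran from 6.18 to 7.54. All 9 treated hearts were above all controls, and the change was 2.12 ± 0.24 (limma adjusted p = 3.21e-06). Hydrocortisone at 56 mg/kg, by the same route and against the same 9 controls, ran from 7.10 over a median of 8.06 to 9.18, with 7 of 9 above every control and a change of 1.34 ± 0.25 (adjusted p = 0.0013). Dexamethasone by gavage read 7.85, 8.67 and 8.72 at 3 d and 7.98, 8.73 and 9.50 at 5 d. Its 19 controls had a median of 6.75 but reached 9.18, so only 1 treated heart was above them all, and the change was 1.46 ± 0.34 (adjusted p = 0.0021).

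Both other fibrates raised Cyp2e1. Fenofibrate at 215 mg/kg read 8.38, 8.70 and 8.72 at 3 d and 9.27, 9.79 and 9.88 at 5 d, against 6.28, 6.75 and 9.18 as lowest, median and highest of 19 controls (2.03 ± 0.32, limma adjusted p = 0.000255). Clofibric acid at 448 mg/kg ran from 7.44 over 7.78 to 10.10 in 9 hearts, against 6.20 to 9.18 in 26 controls, 19 of them shared with fenofibrate, for a change of 1.32 ± 0.29 (adjusted p = 0.0064). That call was lost in 3 of 35 fits that each left out 1 animal. The doses and days of the fibrates differed, so their values stand side by side without a ranking.

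Phenytoin at 572 mg/kg, an anticonvulsant known to raise P450 genes in liver, gave Cyp2e1 levels of 7.29, 9.24 and 9.83 at 3 d and 8.73, 8.75 and 9.84 at 5 d. Its 17 controls lay between 6.33 and 7.69, so 5 of 6 treated hearts were above them, with a change of 1.96 ± 0.26 (limma adjusted p = 0.000156). With the study as a random block the change was 1.97 and not called (adjusted p = 0.118). Valproic acid at 1500 mg/kg, another anticonvulsant and a branched fatty acid, read 7.04, 7.99 and 9.76 at 3 d and 8.60, 9.03 and 9.86 at 5 d against 6.24 to 8.21 in 19 controls (1.81 ± 0.29, adjusted p = 0.000207). Of these 6 hearts, 4 were above every control.

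Terfenadine, an antihistamine that blocks a cardiac potassium channel, raised Cyp2e1 to 7.99, 8.84 and 9.70 at 3 d and 8.17, 8.68 and 9.96 at 5 d. The 18 controls had a median of 6.77 and 1 that reached 9.00, and the change was 1.91 ± 0.28 (limma adjusted p = 6.46e-05). Amiodarone at 147 mg/kg, an antiarrhythmic, read 7.39, 8.70 and 8.80 at 1 d, 7.89, 9.20 and 9.44 at 3 d and 8.35, 8.55 and 10.06 at 5 d (1.78 ± 0.22, adjusted p = 1.87e-05, 27 controls at 6.14 to 9.00). Cyp2e1 was the single P450 gene called after amiodarone, where few genes of any kind were called.

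The 2 smallest Cyp2e1 calls were after acrolein and etidronate. Acrolein at 20 mg/kg, a reactive aldehyde, read 6.54 and 7.80 at 1 d, 8.10, 8.30 and 9.64 at 3 d and 7.53, 8.57 and 9.05 at 5 d, against 6.06 to 8.21 in 28 controls (1.29 ± 0.24, limma adjusted p = 0.000121). Etidronate at 1005 mg/kg, a bisphosphonate, read 8.61, 8.67 and 8.72 at 3 d but 6.93, 7.41 and 7.94 at 5 d, where the controls reached 7.69. Its change of 1.04 ± 0.23 (adjusted p = 0.0079) was lost in 15 of 23 fits that left out 1 animal and without the arrays of doubt (adjusted p = 0.0172). It was also lost with hybridisation batch (adjusted p = 0.0134) or study (0.225) as a random block.

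**Figure D3:**
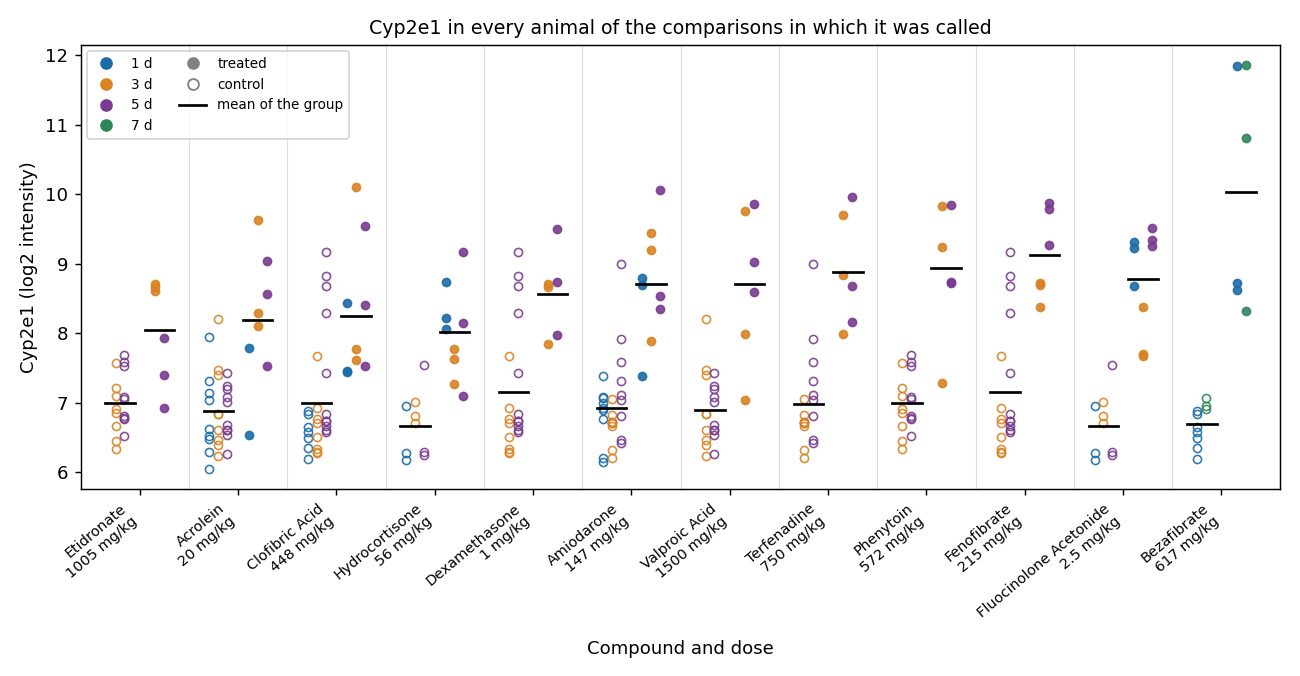
Cyp2e1 level (log2 intensity) of every animal in the 12 comparisons that called it. Filled points are treated animals, open points matched controls, colours are durations and black lines are means. Treated hearts reach 11.87 after bezafibrate, and the highest controls of the corn oil and CMC gavage groups lie at 9.18 and 9.00. The 11 corn oil gavage controls of 5 d had a median of 6.85 and a mean of 7.51, with an SD of 1.02.

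Cyp2e1 also had the widest spread of the 54 genes among control hearts once the liver-rich arrays were left out, with an SD of 0.63. Its 10 highest controls ran from 8.29 to 10.47 and the other 207 from 6.06 to 8.21. In those 10 the median of 9 adipocyte genes was 6.33 to 7.36 with a middle value of 6.89, against a middle value of 6.46 in the others, which reached 9.49. Their liver medians had a middle value of 5.10 and reached 9.75 on 1 array, and 5 of the 10 were arrays of doubt. In the 12 comparisons that called Cyp2e1 the adipocyte list shifted by between 0.02 and 0.26, and 3 of its 9 genes (Cfd, Fabp4 and Slc2a4) had 5 higher calls and 1 lower call over all 12 comparisons. Heart muscle or its vessels also express Fabp4 and Slc2a4. The liver list shifted by between -0.30 and 1.32, the highest after bezafibrate with its liver-rich array, and Hp and Ttr were called higher, in 1 comparison each. Heart muscle genes were called higher 8 times in 7 comparisons (Myh7 and Nppa). Macrophage genes were called higher 23 times in 5 of the 12 comparisons and matrix genes lower 31 times in 6, where 0.929% of all tests were called higher and 1.09% lower. The part of these lists in the Cyp2e1 changes was not tested.

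The opposite direction appeared with the beta agonist isoprenaline, just outside the threshold. At 4.2 mg/kg by mini-pump the 3 animals of 3 d read 6.23, 6.28 and 6.30 and the 2 of 5 d read 6.22 and 6.25, all below the 4 controls at 7.14, 7.34, 7.72 and 8.12. The change was -1.33 ± 0.18 with a limma adjusted p of 0.0108. At 2 mg/kg the 8 animals lay between 6.08 and 6.64 against 6.43 to 7.77 in 9 controls (-0.76 ± 0.17, adjusted p = 0.0101). Norepinephrine at 1.75 mg/kg gave -0.77 ± 0.40 (adjusted p = 0.412), phenylephrine at 0.44 mg/kg -0.40 ± 0.18 (adjusted p = 0.615) and dobutamine by gavage 0.18 ± 0.12 (adjusted p = 0.425). Doses and routes differed among them, and norepinephrine, phenylephrine and the higher isoprenaline dose shared their 4 controls.

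Cyp4b1 codes for a P450 that hydroxylates fatty acids and activates some inhaled toxicants in lung, and it was higher in 11 of its 12 calls. Tacrolimus at 134 mg/kg, the calcineurin inhibitor, gave the largest change. Its hearts read 9.54, 9.75 and 10.02 at 3 d and 9.79, 9.94 and 10.01 at 5 d, against a lowest, median and highest of 8.01, 8.61 and 9.56 in 18 controls. The change was 1.18 ± 0.13 (limma adjusted p = 8.96e-07), with 5 of 6 hearts above every control. The adipocyte median of these treated arrays was 6.81 to 7.43 (controls 5.96 to 6.90), and with only 1 treated array left after removing arrays of doubt the change of 1.02 was not called (adjusted p = 0.228). Pparg, a gene of fat cells that is on that list, rose by 0.88 ± 0.09 in the same hearts.

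Etidronate raised Cyp4b1 in all 6 hearts above all 17 controls. They read 9.19, 9.64 and 9.83 at 3 d and 9.28, 9.46 and 9.55 at 5 d, against 7.64 to 8.64 (1.10 ± 0.12, limma adjusted p = 1.07e-06). The anticonvulsants phenytoin and gabapentin shared these 17 controls. Phenytoin read 9.22, 9.60 and 9.82 at 3 d and 8.86, 8.90 and 8.97 at 5 d (0.83 ± 0.13, adjusted p = 0.000735), again with 6 of 6 above every control. Gabapentin at 2500 mg/kg read 9.22, 9.87 and 9.91 at 3 d but 8.63, 8.71 and 9.03 at 5 d (0.83 ± 0.15, adjusted p = 0.0019), a call lost in 2 of 23 fits that left out 1 animal. With study as a random block both changes were 0.84 and neither was called (limma adjusted p = 0.166 for phenytoin and 0.169 for gabapentin).

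Epirubicin at 2.7 mg/kg, an anthracycline given into the vein, held Cyp4b1 in the narrowest range of any call. Its 9 hearts read 9.45, 9.55 and 9.58 at 1 d, 9.47, 9.51 and 9.57 at 3 d and 9.44, 9.45 and 9.45 at 5 d, all above the 22 controls at 8.20 to 9.28. The change was 0.84 ± 0.09 (limma adjusted p = 7.62e-08). Against the same controls doxorubicin gave 0.39 ± 0.11 (adjusted p = 0.017), and neither daunorubicin (0.15), idarubicin (-0.09) nor mitoxantrone (0.13) was called.

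Chlorobenzene at 500 mg/kg, a solvent known to be toxic to liver, gave 9.07, 9.18 and 9.50 at 1 d, 9.70, 9.71 and 9.81 at 3 d and 9.40, 9.86 and 9.92 at 5 d, against 8.01 to 9.56 in 27 controls (0.91 ± 0.11, limma adjusted p = 7.44e-08). Losartan at 1000 mg/kg, an angiotensin receptor blocker, ran from 9.05 over 9.56 to 9.84 against 8.17 to 9.25 in 28 controls, with 7 of 9 above every control (0.85 ± 0.11, adjusted p = 4.26e-06). Famotidine at 1200 mg/kg, which blocks gastric acid, gave a less stable call. Its 5 hearts read 8.99, 9.25 and 9.34 at 3 d and 9.60 and 9.63 at 5 d against 8.03 to 9.31 in 11 controls (0.89 ± 0.14, adjusted p = 0.0067), and this call was lost in 11 of 16 fits that left out 1 animal and without the arrays of doubt (adjusted p = 0.0319).

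Among the steroids, fluocinolone acetonide put all 9 hearts (9.28 to 10.22, median 9.54) above the 9 controls (8.20 to 9.23), for a Cyp4b1 change of 0.89 ± 0.14 (limma adjusted p = 9.34e-05). Hydrocortisone ran from 8.89 over 9.30 to 9.94 against the same controls (0.67 ± 0.14, adjusted p = 0.0027). Terfenadine gave the smallest call, at 8.82, 9.30 and 9.70 as lowest, median and highest (0.62 ± 0.14, adjusted p = 0.004), which was lost in 4 of 24 fits and with hybridisation batch as a random block (adjusted p = 0.0497). Isoprenaline at 2 mg/kg was the exception in direction. Its hearts read 7.75, 8.79 and 8.81 at 1 d, 7.17 and 8.03 at 3 d and 7.64, 7.73 and 8.00 at 5 d, and the 9 controls lay between 8.32 and 9.42 (-0.87 ± 0.15, adjusted p = 0.0024). At 4.2 mg/kg the change was -0.82 ± 0.24 and did not pass (adjusted p = 0.0804).

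**Figure D4:**
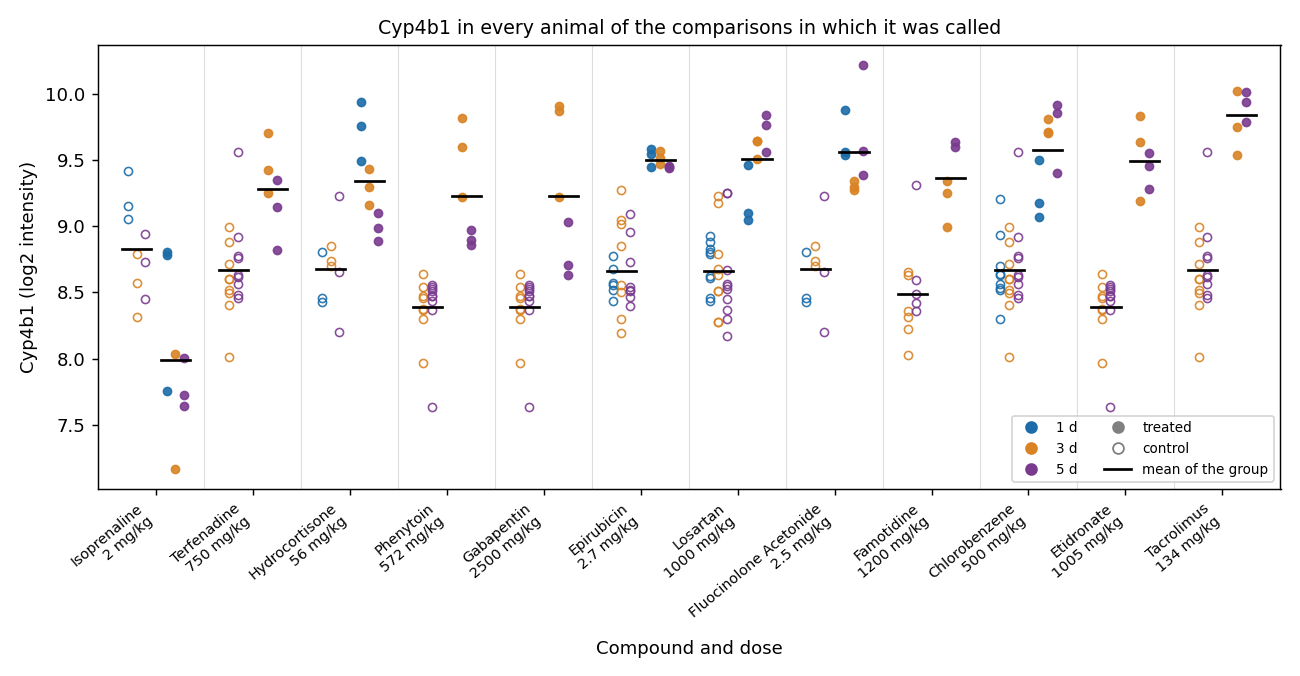
Cyp4b1 level (log2 intensity) of every animal in the 12 comparisons that called it, with filled treated and open control points, colours for durations and black lines for means. The treated points lie above most controls in 11 comparisons and below in that of isoprenaline, where they reach down to 7.17.

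Endothelial, macrophage and matrix genes moved in part of the same comparisons. Of 9 endothelial genes, 3 tests were called higher and 4 lower over the 12 comparisons of Cyp4b1, with list shifts from -0.35 to 0.24. Macrophage genes were called higher 24 times in 8 comparisons and none lower, and matrix genes were called lower 29 times and higher 6 times in 7, where 1.06% of all tests were called higher and 0.944% lower. Their part in the Cyp4b1 changes was not tested. No lung gene of a list of 7 was called in any of the 12.

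Of the other Cyp4 genes, Cyp4f1 and Cyp4f5 were called in 2 compounds each, and both belong to a group that hydroxylates leukotrienes and long fatty acids. Cyp4f1 rose after dexamethasone from a control median of 4.86 (4.61 to 5.46) to 5.45 (5.00 to 5.90), by 0.61 ± 0.11 (limma adjusted p = 0.00013), a call lost in 2 of 25 fits. After fluocinolone acetonide it ran from 5.14 over 5.61 to 6.31 against 4.57 to 5.46 (0.66 ± 0.17, adjusted p = 0.0086). This second call was lost in 13 of 18 fits that left out 1 animal and, at 0.57 (adjusted p = 0.0167), without the liver-rich arrays, 1 of which was a fluocinolone heart.

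Cyp4f5 read 5.97, 6.10 and 6.20 at 3 d and 5.93, 6.05 and 6.26 at 5 d after terfenadine, each above all 18 controls (4.52 to 5.66), for a change of 0.67 ± 0.11 (limma adjusted p = 0.000139). Fenofibrate gave 5.74, 6.13 and 6.51 as lowest, median and highest against 5.18 to 6.01 (0.59 ± 0.11, adjusted p = 0.0015), a fold of 1.50 that sat on the threshold, and the call was lost in 14 of 25 fits and, at 0.57, without the arrays of doubt. The remaining 7 Cyp4 genes were not called. Among those of their changes that passed the fold, Cyp4f17 after prednisolone had an adjusted p between 0.01 and 0.05, at -0.74 ± 0.17 (adjusted p = 0.0281). Others passed the p threshold but not the fold, such as Cyp4f6 after phenytoin (0.49 ± 0.10, adjusted p = 0.0061) and Cyp4v3 after epirubicin (0.50 ± 0.14, adjusted p = 0.0078).

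Cyp4a1 and Cyp4a3 are classical PPAR alpha targets of rat liver, and neither was called after a fibrate in heart. Cyp4a8, a further Cyp4a gene, was not called either. Cyp4a2 was not measured, as its probe set also named Cyp4a3 and was not used. Cyp4a1 read 4.21, 4.34 and 12.14 at 1 d of bezafibrate and 4.58, 6.02 and 9.04 at 7 d, against 4.26 to 5.22 in 10 controls. The 12.14 came from the array with the liver median of 11.17. With it the change was 2.06 ± 0.94 (limma adjusted p = 0.266), and without it 0.67 ± 0.53 (adjusted p = 0.617). Cyp4a1 changed by 0.29 ± 0.11 after clofibric acid (adjusted p = 0.15) and by 0.33 ± 0.14 after fenofibrate (adjusted p = 0.185).

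Cyp4a3, at a control median of 6.69 to 6.76 in these comparisons, changed by 1.07 ± 0.56 after bezafibrate (0.22 ± 0.29 without the liver-rich array), 0.24 ± 0.13 after clofibric acid and 0.43 ± 0.16 after fenofibrate, with adjusted p between 0.145 and 0.453 in limma. Cyp4a8 moved by no more than 0.09 in either direction. Of 18 measured PPAR alpha targets outside the P450 genes, 8 were called higher after bezafibrate, 2 after clofibric acid and 4 after fenofibrate, and none was called lower. Acot1, an acyl-CoA thioesterase and the largest of them, rose by 4.44 ± 0.46, 3.06 ± 0.28 and 3.39 ± 0.33. The bezafibrate values of these targets are given only with the liver-rich array, unlike those of Cyp4a1 and Cyp4a3. With it, Acot1 after bezafibrate read 6.88, 7.91 and 11.49 as lowest, median and highest, against 3.96 to 4.47 in controls.

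Of the 10 epoxygenases, Cyp2c23, the arachidonate epoxygenase of rat kidney, was called once. After chlorambucil at 4.5 mg/kg, an alkylating agent, it read 4.12, 4.34 and 4.71 at 3 d and 4.86, 5.74 and 5.89 at 5 d, against 3.80, 4.15 and 4.74 as lowest, median and highest of 19 controls (0.79 ± 0.15, limma adjusted p = 0.0092). The call was lost in 20 of 25 fits that left out 1 animal, and without the liver-rich arrays the change was 0.66 (adjusted p = 0.0633). It was also lost with hybridisation batch as a random block (adjusted p = 0.0102). The other 9, Cyp2j3, Cyp2j4 and Cyp2j10 among them, were called in no comparison. The largest changes among these 9 were those of Cyp2c13, from -0.74 ± 0.70 after pentoxifylline to 1.63 ± 0.85 after bezafibrate, with adjusted p of 0.572 and 0.33. Each of these comparisons held 1 liver-rich array, and without it the changes were -0.23 ± 0.29 and 0.23 ± 0.25 (adjusted p = 0.689 and 0.748).

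Enzymes on either side of the epoxygenases or in other branches of arachidonic acid metabolism were followed over 33 comparisons looked at one by one. The list of 10 such genes was chosen with earlier results of these data known, so its share of calls is a description and not a test. These genes had 24 higher and 7 lower calls in 19 comparisons. That was 9.39% of their tests, beside 1.18% of the tests of all genes in the same comparisons. Ephx1, the microsomal epoxide hydrolase that opens epoxides, was called in 14 of these, each higher, by up to 2.40 ± 0.19 after doxorubicin. Pla2g4a, the phospholipase that frees arachidonic acid, rose in 6, by up to 2.07 ± 0.40 after dexamethasone. Alox15, a lipoxygenase of the same substrate, was lower in 6, by up to -2.60 ± 0.19 after epirubicin.

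Cyp2b1, Cyp2b2, Cyp2d1 and Cyp2d5 were not measured, as their probe sets each named several genes and were not used. The Cyp2b genes measured were Cyp2b3, Cyp2b12 and Cyp2b21. The measured drug-clearing Cyp2a, Cyp2b, Cyp2d and Cyp3a genes were called in no comparison, including those with compounds known to raise P450 genes in liver. Of their changes past the fold, the one with an adjusted p between 0.01 and 0.05 was that of Cyp3a23-3a1, the rat Cyp3a gene raised by PXR ligands. After spironolactone at 300 mg/kg, an aldosterone blocker that also binds PXR, it read 4.08, 5.28 and 10.22 at 1 d, 6.38, 7.39 and 9.45 at 3 d and 3.96, 5.12 and 5.65 at 5 d. The 27 controls had a median of 3.91 and ran from 3.75 to 6.59, and their highest was one of the liver-rich arrays. The change of 2.36 ± 0.43 had a limma adjusted p of 0.0267 and was not called. Without the liver-rich arrays it was 2.48 ± 0.40 with an adjusted p of 0.003, past the threshold. No gene of the whole array was called after spironolactone (0.0%), and none of its 9 treated arrays was liver-rich.

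Under phenytoin the other measured genes of this group were not called. After 1,4-dichlorobenzene at 900 mg/kg none of the 54 was called, where 0.0914% of all genes were called. There Cyp2e1 came nearest, at 0.62 ± 0.17 (limma adjusted p = 0.0506). The lowest change of an uncalled gene of the group was Cyp3a2 after guanethidine, at -1.14 ± 0.64 (adjusted p = 0.229), a gene that was 3.65 higher on the liver-rich arrays. Without the 1 such control array there the change was -0.72 ± 0.35 (adjusted p = 0.163). Of the 46 genes never called, 26 never reached a fold of 1.5 in any comparison and 20 did.

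Cyp11a1 makes pregnenolone from cholesterol in mitochondria of adrenal gland and gonad, and it was the only P450 gene whose calls were mostly lower. Doxorubicin at 3 mg/kg gave 5.68, 6.23 and 6.74 at 1 d, 5.63, 5.74 and 5.82 at 3 d and 5.83, 6.06 and 6.32 at 5 d, against 6.30, 7.17 and 7.82 as lowest, median and highest of 22 controls. The change was -1.09 ± 0.15 (limma adjusted p = 8.32e-06), with 7 of 9 hearts below every control. Epirubicin, against the same controls, gave 5.88, 6.14 and 7.02 at 1 d, 5.61, 5.92 and 6.22 at 3 d and 5.82, 6.23 and 6.41 at 5 d (-0.95 ± 0.16, adjusted p = 3.77e-05), also with 7 of 9 below. Daunorubicin at 3.25 mg/kg (-0.09 ± 0.16, adjusted p = 0.896), idarubicin at 0.625 mg/kg (-0.03 ± 0.14) and mitoxantrone at 2 mg/kg (-0.28 ± 0.16, adjusted p = 0.358) did not pass. The 5 compounds were given at different doses, so these values are not a comparison between them.

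Terfenadine lowered Cyp11a1 to 6.09, 6.53 and 6.62 at 3 d and 5.51, 6.09 and 7.20 at 5 d from a control median of 7.55 (6.58 to 7.82), by -1.08 ± 0.19 (limma adjusted p = 0.000315). With hybridisation batch as a random block the change was -0.96 and not called (adjusted p = 0.0148). Tacrolimus and rapamycin, which both bind the protein FKBP12, were set against the same 18 controls. Tacrolimus gave 6.02, 6.11 and 7.13 at 3 d and 6.10, 6.44 and 6.89 at 5 d (-0.97 ± 0.17, adjusted p = 0.00021), and rapamycin at 60 mg/kg 5.95, 6.24 and 6.93 at 3 d and 6.56, 6.89 and 7.02 at 5 d (-0.82 ± 0.16, adjusted p = 0.003). The rapamycin call was lost in 2 of 24 fits and with controls of every campaign (adjusted p = 0.0294). The calcineurin inhibitor cyclosporin A gave -0.69 ± 0.17 at 300 mg/kg in the acacia mixture (adjusted p = 0.0192) and -0.59 ± 0.20 at 350 mg/kg in corn oil (adjusted p = 0.0519), neither of them called. The tacrolimus call was lost with the arrays of doubt removed, where 1 treated array was left.

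Acrolein gave Cyp11a1 levels of 6.04 and 6.30 at 1 d, 5.80, 5.98 and 6.77 at 3 d and 5.47, 6.03 and 7.15 at 5 d, against 6.09 to 7.88 in 28 controls with a median of 7.33 (-0.99 ± 0.18, limma adjusted p = 0.00014). Sulindac at 132 mg/kg, a cyclooxygenase inhibitor, read 5.95, 6.61 and 7.30 at 3 d and 5.94 and 6.21 at 5 d, with 4 of 5 hearts below all 19 controls (-0.93 ± 0.20, adjusted p = 0.0013). Its arrays had adipocyte medians of 6.90 to 8.03, and without the arrays of doubt 1 treated array was left, where the change was -0.79 (adjusted p = 0.656). Valdecoxib at 404 mg/kg, another inhibitor of this kind, lay just outside at -0.70 ± 0.17 (adjusted p = 0.0122).

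Dexamethasone gave the single higher call of Cyp11a1, against the same 19 corn oil controls as sulindac. The hearts read 8.13, 8.62 and 9.15 at 3 d and 7.70, 7.87 and 8.74 at 5 d, and the controls 6.67, 7.18 and 8.09 as lowest, median and highest. The change was 1.06 ± 0.18 (limma adjusted p = 7.99e-05), with 4 of 6 hearts above every control. Hydrocortisone gave 0.64 ± 0.24 (adjusted p = 0.089), fluocinolone acetonide 0.53 ± 0.28 (adjusted p = 0.205) and fludrocortisone acetate 0.28 ± 0.15 (adjusted p = 0.212). Bezafibrate gave 0.64 ± 0.20 (adjusted p = 0.0965), which was 0.89 and past the threshold without its liver-rich array (adjusted p = 0.0043). None of the other 4 steroid synthesis genes, Cyp11b1, Cyp17a1, Cyp19a1 and Cyp21a1, was called in any comparison.

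Of the adrenal cortex list, in the 8 comparisons of Cyp11a1, the gene called was Inha, lower in 4, and the median of the list shifted by between -0.08 and 0.05. Macrophage genes were called higher 26 times in 6 of the 8 comparisons, with a list shift of up to 1.58, and matrix genes lower 22 times and higher 3 times in 6, where 1.54% of all tests were called higher and 1.32% lower. Their part in the Cyp11a1 changes was not tested.

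Cyp2t1, a Cyp2 family member with no settled substrate, was called higher in 4 compounds. Fluocinolone acetonide gave 6.97, 7.26 and 7.71 at 1 d, 6.73, 6.82 and 7.23 at 3 d and 5.94, 6.88 and 7.36 at 5 d, against 4.98 to 5.71 in 9 controls (1.66 ± 0.17, limma adjusted p = 1.13e-06). Dexamethasone gave 6.95, 7.16 and 7.61 at 3 d and 6.23, 6.78 and 6.90 at 5 d, against 5.09 to 6.21 in 19 controls (1.39 ± 0.17, adjusted p = 4.29e-07). In both, each treated heart was above each control, a rise of 3.16-fold and 2.62-fold. These animals did not share controls, and the vehicle was corn oil in both, under the skin for fluocinolone acetonide and by gavage for dexamethasone.

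No other steroid passed the test for Cyp2t1. Hydrocortisone gave 0.75 ± 0.23 and lay just outside (limma adjusted p = 0.0367), with 9 hearts from 4.98 to 7.35. Fludrocortisone acetate at 125 mg/kg gave 0.30 ± 0.16 (adjusted p = 0.225). The 3 given for 1 d alone, cortisone at 206 mg/kg (-0.07), prednisolone at 184 mg/kg (-0.38) and prednisone at 68 mg/kg (-0.24), were not called. Doses, routes and days differed among the steroids.

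Cyp2t1 was also called after chlorobenzene, at 5.04, 5.85 and 6.18 at 1 d, 6.06, 6.33 and 6.89 at 3 d and 6.47, 6.60 and 7.35 at 5 d against 4.96 to 6.61 in 27 controls (0.87 ± 0.16, limma adjusted p = 6.97e-05). The last was doxorubicin, at 5.39, 5.79 and 6.18 at 1 d, 5.76, 5.90 and 6.71 at 3 d and 6.02, 6.13 and 6.24 at 5 d against 5.04 to 5.91 in 22 controls (0.65 ± 0.10, adjusted p = 5.91e-05). Epirubicin passed the p threshold at 0.49 ± 0.12 (adjusted p = 0.0022), but not the fold. Matrix genes were called lower 26 times in 3 of the 4 comparisons, and macrophage genes higher 16 times in 3, where 1.82% of all tests were called higher and 2.26% lower. Their part in the Cyp2t1 changes was not tested.

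**Figure D5:**
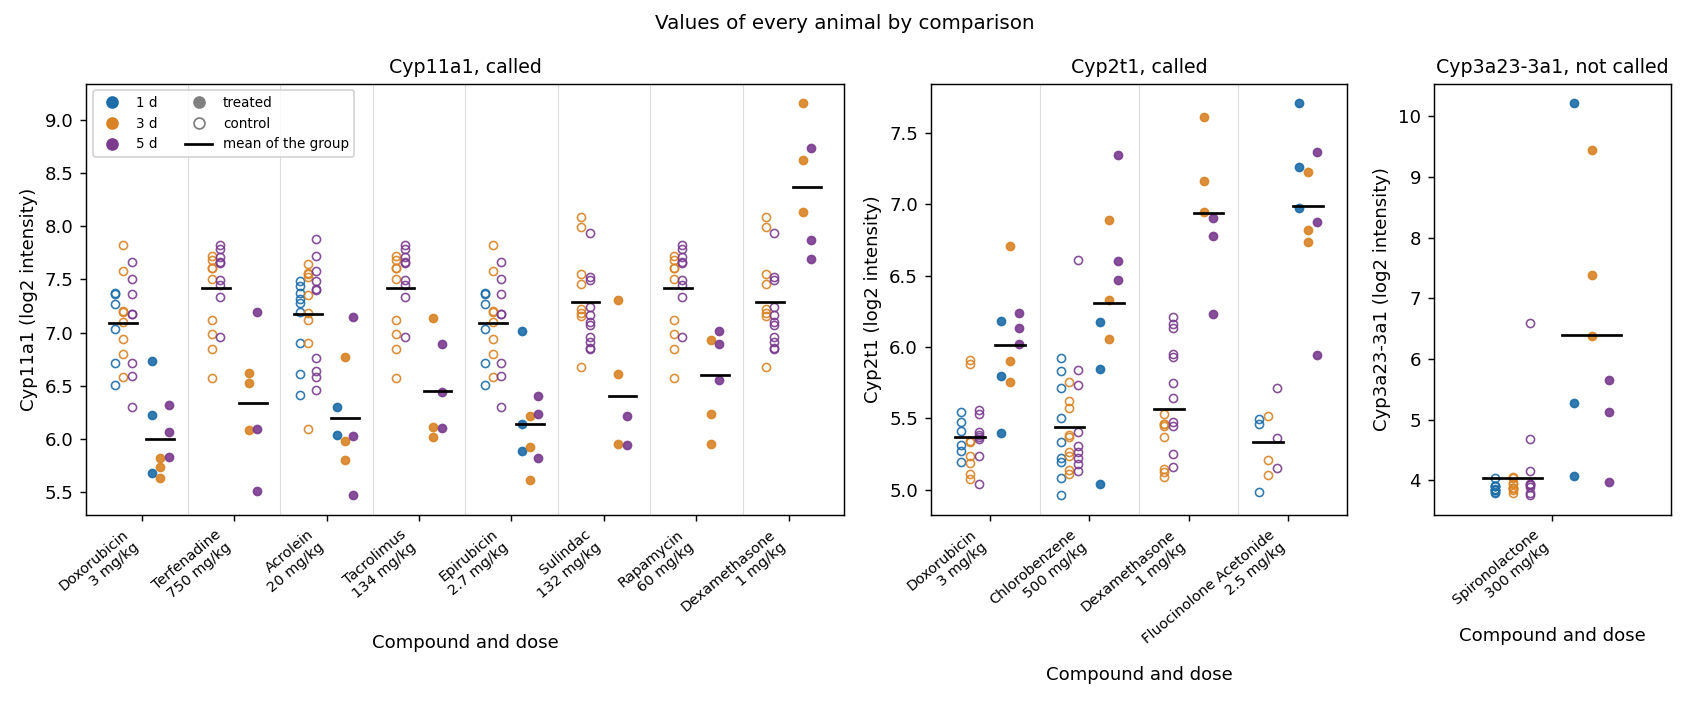
Level (log2 intensity) of every animal for Cyp11a1 in its 8 called comparisons, Cyp2t1 in its 4, and Cyp3a23-3a1 after spironolactone, which was not called. Filled points are treated animals, open points controls, colours durations and black lines means. Cyp11a1 lies lower in 7 comparisons and higher after dexamethasone, Cyp2t1 lies higher in all 4, and the spironolactone hearts spread from 3.96 to 10.22.

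Among the bile acid and cholesterol genes, Cyp27a1 was called once. After prednisolone at 184 mg/kg for 1 d the 3 hearts read 9.62, 10.20 and 10.39, all above the 9 controls at 9.18 to 9.50, for a change of 0.72 ± 0.13 (limma adjusted p = 0.0041). The call was lost in 2 of 12 fits that left out 1 animal. Fluocinolone acetonide (0.46 ± 0.09, adjusted p = 0.0018) and hydrocortisone (0.47 ± 0.07, adjusted p = 0.000235) passed the p threshold but not the fold. Cyp7a1, Cyp7b1, Cyp8b1, Cyp39a1 and Cyp46a1 were called in no comparison, and the largest change among them was 0.61 ± 0.43 for Cyp8b1 after bezafibrate, which was -0.07 ± 0.16 without its liver-rich array.

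None of the 3 vitamin D and retinoic acid genes, Cyp26a1, Cyp26b1 and Cyp27b1, was called, and none reached a fold of 1.5. For Cyp26b1, which breaks down retinoic acid, the probe sets disagreed. The second brightest probe set rose by 1.23 ± 0.20 after fluocinolone acetonide and fell by 1.13 after phenytoin and by 1.39 after guanethidine, each called in limma (adjusted p = 0.00028, 0.0019 and 0.0032). Cyp2s1, Cyp2u1 and Cyp20a1 were not called. Cyp2u1 passed the p threshold after etidronate with a change of -0.39 ± 0.09 (adjusted p = 0.0097), short of the fold.

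The threshold left out values close to it. In 15 pairs of 6 genes the fold was passed with an adjusted p between 0.01 and 0.05, and in 22 pairs the adjusted p was passed with a fold under 1.5. Loratadine at 2000 mg/kg was among the first kind for both main genes, with 5 hearts against 6 controls. Cyp4b1 read 9.47, 9.77 and 9.89 at 1 d and 10.16 and 10.43 at 5 d against 8.26 to 9.07, for 1.25 ± 0.19 (limma adjusted p = 0.0159), and Cyp2e1 changed by 1.40 ± 0.27 (adjusted p = 0.0467). Atenolol at 1000 mg/kg gave 1.11 ± 0.30 for Cyp2e1 (adjusted p = 0.0118), and 1.28 with a call once the liver-rich arrays were left out. Mitoxantrone (0.85 ± 0.23, or 0.73 without its liver-rich array) and epirubicin (0.80 ± 0.27) were close for the same gene. Of the compounds with matched controls at more than 1 dose (allylamine, angiotensin II, celecoxib, cyclosporin A, imatinib, isoprenaline, metoprolol and valsartan), isoprenaline at 2 mg/kg was the only one to call a P450 gene. The other doses called 0 of 54, beside a share of all genes of 0.0% and 1.01% after allylamine at 40 and 75 mg/kg, 0.0211% and 0.0703% after celecoxib at 35 and 400 mg/kg, and 0.816% and 1.92% after cyclosporin A at 300 and 350 mg/kg. It was 0.0914% and 0.00703% after metoprolol at 120 and 1200 mg/kg, 0.0% and 0.218% after imatinib at 15 and 150 mg/kg, 0.0% and 0.155% after valsartan at 30 and 1000 mg/kg, 0.176% after isoprenaline at 4.2 mg/kg and 0.0% after both doses of angiotensin II. Among these, Cyp2e1 changed by 0.66 ± 0.14 after metoprolol at 120 mg/kg (limma adjusted p = 0.0745) and by 0.96 ± 0.24 at 1200 mg/kg (adjusted p = 0.405). Daunorubicin was also given at more than 1 dose. At 3.25 mg/kg into the vein it called 0 of 54, beside 0.317% of all genes, and 2 mg/kg by gavage had no matched controls.

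The supply of electrons and haem to these enzymes was followed through 2 further lists in the 33 comparisons looked at one by one. These lists were also chosen with earlier results known, so their shares of calls are a description and not a test. Of 9 genes of electron donors and partners, 2 were called (2.02% of tests, beside 1.18% over all genes). Por was called higher after bezafibrate (0.96 ± 0.17), fenofibrate (0.68 ± 0.12), chlorobenzene (0.67 ± 0.09) and dexamethasone (0.59 ± 0.12). Each of these 4 also had at least 1 P450 gene called. The 33 comparisons were chosen in part for such calls, so that overlap was partly set by the choice. Cyb5b, a cytochrome b5 of mitochondria, was lower after both doses of cyclosporin A (-0.71 ± 0.14 and -0.67 ± 0.11). Of 12 haem genes, 3 were called, with 4 higher and 18 lower calls in 14 comparisons (5.56% of tests, beside 1.18% over all genes). Alas1, the first enzyme of haem synthesis, was lower in 6, by up to -1.01 ± 0.10 after cyclosporin A at 300 mg/kg. Alas2, its form in red cells, was lower in 12, and Hmox1, which breaks haem down, was higher in 4.

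Of 21 nuclear receptor genes known to govern P450 genes, 6 were called, with 5 calls higher and 2 lower (1.01% of tests, beside 1.18% over all genes). Nr3c1, the glucocorticoid receptor, fell by 0.61 ± 0.09 after fluocinolone acetonide, and Ppara fell by 0.60 ± 0.10 after 1,4-dichlorobenzene. Nr1h3 rose after bezafibrate (0.75 ± 0.14) and doxorubicin (0.73 ± 0.15). Over all 18 PPAR alpha targets there were 40 higher and 3 lower calls in 15 comparisons (7.24% of tests, beside 1.18% over all genes). The receptor and target lists too were chosen with earlier results known, so their shares are a description and not a test. Angptl4 rose by 3.04 ± 0.34 after fluocinolone acetonide and by 2.71 ± 0.68 after dexamethasone, the steroids that called 5.73% and 6.27% of all genes.

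Differences between durations were tested as an interaction. In 31 comparisons with 2 or more durations, it was called for none of 54 genes in limma, where 0.0735% of all tests were called. Of 1674 tests of the 54 genes, 113 (6.75%) had an unadjusted p under 0.05. The share of all genes at that unadjusted p is not given here, so no excess is read from this count. The smallest adjusted p was 0.0462, for Cyp2e1 after chlorobenzene, which changed by 1.67 at 1 d, 0.39 at 3 d and -0.31 at 5 d. Without the arrays of doubt 1 gene passed, Cyp4b1 after phenytoin, at 1.26 on 3 d and 0.42 on 5 d (adjusted p = 0.0028). In control hearts, 52 animals of 1 d taken in the afternoon were set against 157 of 3 and 5 d taken in the morning. Of the 157, 114 shared vehicle, route and campaign with animals of 1 d. None of the 54 genes was called, beside 0.0774% of all genes. An unadjusted p under 0.05 was found for 6 P450 genes, again without the share of all genes beside it. The smallest limma adjusted p was 0.0656, for Cyp2d4 (-0.09), and Cyp2e1 changed by -0.26 ± 0.09 (adjusted p = 0.124). Afternoon and duration cannot be told apart in that comparison.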

How the data were processed

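Poly A RNA of 840 rat hearts was hybridised to Affymetrix arrays (862 arrays, 22 animals with 2). The authors deposited log2 intensities summarised per probe set by robust multi-array averaging (RMA, per the labels' processing notes), between 3.15 and 14.8. All 862 arrays were read. The study's methods name the frozen form of RMA (frma), and which of the 2 made these values was not settled here. Of 31099 probe sets, 20826 named a single gene in the platform annotation. The one of highest mean stood for each of 14217 genes, and 436 naming several genes were unused. Where an animal had 2 arrays, only the array of the earlier extraction campaign entered the comparisons. Replicates are separate animals. The number of arrays limits the precision.

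Each compound, dose, vehicle and route was fitted with limma 3.58.1 (R 4.3.3) against controls matched on vehicle, route, duration and RNA extraction campaign, with the combination of duration and campaign as a factor. Calls needed a Benjamini-Hochberg adjusted p of 0.01 over all genes and a fold of 1.5. The fit was tested on simulated data. Of 97 combinations, 2 had no matched controls and 12 controls had no group, and these were left out. Arrays of doubt were 85 with an adipocyte median over 7, a liver median over 8 or a correlation with the other arrays under 0.95, and the adipocyte list holds genes that heart also expresses.

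The members and lists were chosen with earlier results of these data known. Named are the 10 genes of highest and 5 of lowest mean in controls, each gene called at least once (in every animal where called in 3 or more compounds or among the 15 largest changes), the 12 combinations with most calls, compounds at more than 1 dose, fibrates, known inducers (phenytoin, dexamethasone, spironolactone, 1,4-dichlorobenzene), and pathway genes called there. Values just outside the thresholds were added. Alternatives were controls of every campaign or of the own study, the second probe set, the upper 60% of genes, quantile normalization, the methods' t-test, batch or study as a random block, and leaving out replicates or arrays of doubt. Leaving out liver-rich arrays alone was chosen after seeing the data. Promoter windows are RefSeq's, and tables were joined with pandas 2.3.3 and drawn with matplotlib 3.10.9.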

Additional observations from a re-analysis of the deposited data

Results flagged for a closer look

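One control heart stood apart in 1 of 72 comparisons of the highest and lowest animal over 9 control groups, and chance gives about 1 in 20. In the 6 controls given saline intravenously for 1 d, the highest Cyp4f1 level was 6.07 and the next 5.37, a gap of 0.639 of the range of the group, above the critical value of 0.625. The liver median of that heart was 5.07 and its adipocyte median 6.30.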

How the results depend on the processing

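No paired analysis was possible because the labels number no replicates, and the numbers used here follow accession order. None of the 42 called changes turned direction under any alternative. With controls of the animals' own study alone, 51 comparisons could be fitted and 5 changes were called, 2 higher and 3 lower, with 0 genes in 5 or more compounds; 11 of the 42 changes were computed there and 4 were kept, with fewer animals in each fit. Leaving out the replicate of 1 number in every group gave 27 to 36 calls (20 to 28 higher, 7 to 9 lower), with 3 genes in 5 or more compounds each time. Of the 42 changes, 24 were kept without replicate 2 and 31 and 33 without replicates 1 and 3. Without the arrays of doubt 42 changes were called, 35 of them the same, and the interaction with duration was called for 1 gene in place of 0. The other totals were 61 with controls of every campaign (97 combinations fitted), 43 with the second probe set, 37 over the upper 60% of genes (12 of the 54 left), 42 after quantile normalization, 35 with the methods' t-test, 40 with hybridisation batch and 39 with study as a random block, and 47 without the liver-rich arrays. Cyp2e1 lost its calls after phenytoin (adjusted p = 0.118) and etidronate (0.225) with study as a block, and Cyp4b1 those after phenytoin (0.166) and gabapentin (0.169). With hybridisation batch as a block, Cyp11a1 (0.0148) and Cyp4b1 (0.0497) lost their calls after terfenadine, Cyp2e1 after etidronate (0.0134) and Cyp2c23 after chlorambucil (0.0102), while Cyp2e1 gained calls after isoprenaline at 4.2 mg/kg (-1.33, adjusted p = 0.006) and metoprolol at 120 mg/kg (0.67, 0.0061). The cause was not tested. Only 6 of the 54 genes had a second probe set, and none of these was called with its main probe set. The values behind all 42 calls were thus the same under the second probe set alternative, which is no check of them. Of the 54 genes, 34 had control means under 5, not far above the lowest value of the array (3.15).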

Other observations

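In the 12 controls that the labels put in no group, the lowest, median and highest level was 6.77, 7.22 and 8.01 for Cyp11a1, 8.88, 9.17 and 9.78 for Cyp27a1 and 7.71, 8.77 and 9.17 for Cyp20a1. In the 22 animals with 2 arrays, the median absolute difference between arrays of 1 heart was 0.22 for Cyp2e1 (highest 1.12), 0.18 for Cyp4b1 (highest 1.34), 0.31 for Cyp11a1 (highest 0.81), 0.24 for Cyp2t1 (highest 0.64), 0.39 for Cyp27a1 (highest 2.01) and 0.29 for Cyp3a23-3a1 (highest 2.57).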
